A study of Mus musculus with 8 samples.

Results

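Stromal cells positive for FAP, fibroblast activation protein, which is a serine protease of the cell surface, were sorted from mouse pancreas and from mouse visceral adipose tissue, and their RNA was sequenced. The comparison of these FAP+ populations rests on 4 of the 8 libraries of the series, 2 per tissue. Another 2 libraries, of FAP+ cells from skeletal muscle, place each gene beside another tissue, and 2 of mouse embryonic fibroblasts (MEFs), sorted as FAP-negative, cultured for 3 passages and sorted again, served to estimate the spread. The labels give the tissue or cells and the FAP gate but no strain, age, sex or treatment. They call the sorted pancreas cells stellate cells and name the libraries of a group biological replicates.

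Across 14248 autosomal genes that passed the filter on low counts, 1291 differed between pancreas and adipose FAP+ cells, a share of 9.06%. Of these, 477 genes (3.35% of all tested) were higher in pancreas and 814 (5.71%) were higher in adipose. The counts of called list members below stand beside these shares. A gene was called when its adjusted p in edgeR's quasi-likelihood test was below 0.05 and both libraries of the higher tissue lay above both of the lower, and this second condition removed 0 genes. At an unadjusted p below the same threshold, 3749 genes differed. Against muscle, 523 genes (3.67%) passed the threshold for pancreas and 874 (6.13%) for adipose. Called differences had a median absolute log2 fold change of 2.33 and none was below 0.92. More than 10-fold differences were fitted for 102 genes higher in pancreas and 251 higher in adipose. With either pancreas library left out, few genes were called in either direction, and with either adipose library left out, the counts in both directions rose. Such a fit takes the spread from the other groups alone. It therefore does not show how many calls need both libraries of a tissue. The direction split also moved with the scaling: genes higher in pancreas made up 36.9% of calls with TMM factors, 34.0% with RLE, 47.5% with upper quartile, 70.2% without scaling factors, 66.8% for FPKM values and 45.7% for reads recovered from the RPKM table. The median log2 fold change over all genes rounded to 0 with TMM factors and was 0.14 with upper quartile, 0.63 without scaling factors and 0.37 on FPKM, so a change is read relative to that shift.

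**Figure D1:**
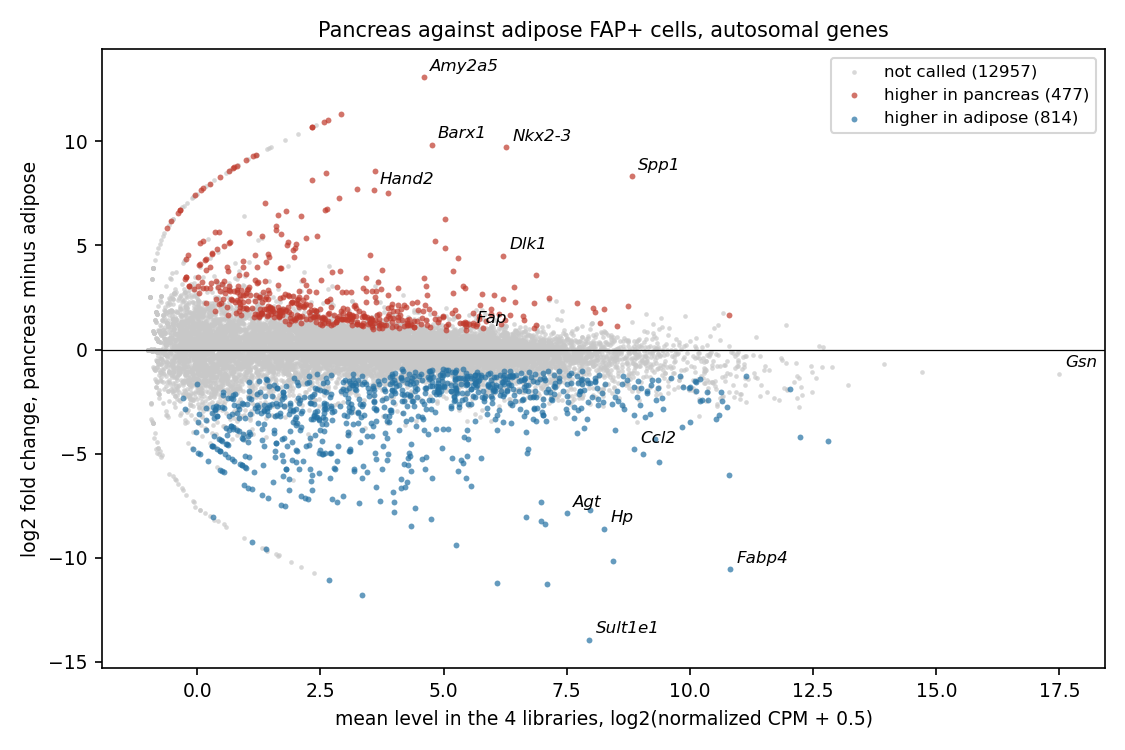
Each point is 1 of 14248 autosomal genes, with the mean level over the 4 libraries as log2(normalized CPM + 0.5) on the x axis and the fitted log2 fold change, pancreas minus adipose, on the y axis. Red points are the 477 genes called higher in pancreas, blue points the 814 called higher in adipose and grey points were not called; Nkx2-3, Barx1 and Spp1 lie far above 0 and Sult1e1, Fabp4 and Hp far below it.

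Some properties of the libraries stand before any gene. The libraries differed as those of female and male animals do: Xist, the RNA of the silenced X chromosome, was at 144 and 216 normalized CPM (fragments scaled to library size) in the 2 pancreas libraries and 0.152 and 0.122 in the adipose libraries. Ddx3y, Eif2s3y, Kdm5d and Uty on chromosome Y were listed at 0 in both pancreas libraries, while Eif2s3y was at 18.7 and 18.7 in adipose and 16.6 and 16.5 in muscle. Tissue and sex of the animals cannot be told apart here, and genes of chromosomes X and Y were left out of every count. Estimated fragments totalled 17593056 and 17102944 in pancreas and 25455781 and 27759399 in adipose. Gsn alone held 12.2% to 17.8% of them. The adipose libraries differed from each other by more than 3-fold in 1402 autosomal genes, and the pancreas libraries in 117. Levels as log2(normalized CPM + 1) correlated at 0.929 between the adipose libraries, 0.985 between the pancreas libraries and 0.987 between the muscle libraries. Adipose library 2 correlated at 0.944 and 0.952 with the muscle libraries and 0.928 and 0.939 with the pancreas libraries. Its own replicate was thus not its nearest library.

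FAP marks fibroblast-like mesenchymal cells, which build the matrix of an organ and signal to its other cells. Those of the pancreas descend from the mesenchyme around the embryonic gut, where factors such as Nkx and Barx proteins pattern stomach, spleen and pancreas, and the stellate cell of the adult organ is known for storing vitamin A. Those of visceral fat include progenitors of adipocytes, which lie close to capillaries and take up the adipogenic programme under the nuclear receptor PPARG.

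The gate and the labels were checked first. Fap itself was at 55.4 and 65.6 CPM in pancreas and 28 and 34.4 in adipose, a log2 difference of 0.96 ± 0.53 that did not pass the test (adjusted p = 0.297). All 12 general fibroblast markers passed the filter and 0 were called by edgeR, with 3 lower in pancreas at an unadjusted p below 0.05 and 4 by DESeq2. The fold change was nevertheless negative for 10 of the 12, with a median of -0.76, or -0.12 without scaling factors. They summed to 27544 and 31182 CPM in pancreas, 63173 and 49881 in adipose and 46295 and 42791 in muscle. Dcn, the collagen-binding proteoglycan decorin, was at 11081 and 12696 CPM in pancreas and 17279 and 21787 in adipose. Pdgfra, the receptor that marks fibroblasts, was at 425 and 578 and 347 and 598. Of genes known from vitamin A storing stellate cells, Lrat, which esterifies retinol, was near 0 in every library (0.104 and 0.312 CPM in pancreas, 0.0762 and 0.0811 in adipose), as was Gfap (0.104 and 0.468 and 0.839 and 0.0811). Des, the filament protein desmin, was lower in pancreas, at 41.6 and 34.6 CPM against 229 and 143. In muscle it stood at 45.9 and 58.4 CPM, so that the adipose values were the high ones. Of 25 tested retinoid and stellate cell genes, 3 were higher in pancreas (Aldh1a2, Cyp26b1 and Rarg) and 4 in adipose, Des among them. These genes thus do not settle whether the sorted pancreas cells are stellate cells, and the cells are called pancreas FAP+ cells below.

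Genes of other cell types also differed between the libraries, which bears on every group of genes below. In pancreas, 19 of 24 tested acinar markers and 10 of 17 duct and epithelial markers were higher, with a list median log2 fold change of 7.19 and 4.42. Their summed levels were 304 and 145 CPM for the acinar list in pancreas against 76.6 and 57.1 in adipose, and 1731 and 569.9 against 47.4 and 44.6 for the epithelial list. Most of the acinar sum in adipose was the amylase gene Amy1, at 64.2 and 51.9 CPM there. Spp1 made up most of the epithelial sum, which without it was 372 and 127 in pancreas and 44.3 and 42.2 in adipose. Spp1 also stood at 5816 and 5753 CPM in the MEFs. Amy2a5, pancreatic amylase, was at 66.6 and 28.6 CPM in pancreas and listed at 0 in both adipose libraries, at least 272-fold higher, though reads of its near-identical copies may be split between them. Clps (colipase), at 17.9 and 10.3 CPM in pancreas, was likewise listed at 0 in both adipose libraries. Cela2a (an elastase) was at 32.6 and 13.9 CPM in pancreas and 0.152 and 0 in adipose, and Ctrb1 (chymotrypsinogen) at 36.8 and 19.2 and 0.381 and 0. DESeq2 did not call Amy2a5 or Ctrb1. Pancreas library 1 held more of all 4 enzymes than library 2, and more of the keratins Krt8 (111 and 35.9 CPM) and Krt18 (97 and 26.5). Ptf1a, the master factor of acinar cells, was at 0 in both pancreas libraries. Of 9 tested islet markers 2 were higher in pancreas (Pcsk2 and Ttr) and 1 in adipose (Cpe), with a median of 2.99, and 5 and 1 without scaling factors. The islet list summed to 33.4 and 22 CPM in pancreas and 41.3 and 66.3 in adipose, and without Cpe to 26.7 and 16.1 against 6.63 and 1.54. Insulin 2 (Ins2) was at 2.61 and 5.56 CPM in pancreas and 3.51 and 0.243 in adipose and was not called. Amy1, the salivary amylase gene that other tissues also express, ran the other way, at 5.21 and 3.07 CPM in pancreas and 64.2 and 51.9 in adipose.

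In adipose, 16 of 20 endothelial markers were higher, with a list median of -5.38. They summed to 1052 and 1033 CPM in adipose, 126 and 130 in pancreas and 146 and 297 in muscle. The tight junction gene Cldn5 was at 194 and 332 CPM in adipose and 0.886 and 0.676 in pancreas (335-fold, adjusted p = 0.00384), and the junction genes Cdh5 and Pecam1 were at 47.3 and 31.2 and 57.7 and 114 CPM against 0.156 and 0.0520 and 1.41 and 0.935. Pericyte markers were higher for 6 of 13 and lower for 1, myeloid markers for 6 of 12 and lower for 1, and mature adipocyte markers for 5 of 11. The pericyte list summed to 380 and 260 CPM in adipose and 159 and 144 in pancreas. The myeloid list summed to 144 and 87.7 CPM in adipose, 96.4 and 103 in pancreas and 111 and 187 in muscle. Its sum was thus above both pancreas libraries in adipose library 1 only. Adipoq, which encodes the adipocyte hormone adiponectin, reached 3.51 and 1.95 CPM in adipose, while the leucocyte antigen Ptprc was at 0.381 and 0.649 and the macrophage marker Adgre1 at 0.381 and 0.203. Haemoglobin genes summed to 1412 and 132 CPM in adipose and 0.156 and 1.51 in pancreas, and their near-identical copies make each value uncertain. Of 17 mesothelial markers 5 were higher in pancreas, among them the keratins above, and 3 in adipose (1 without scaling factors). In bulk libraries, fewer cells of a type and less RNA per cell cannot be told apart. The part of these cells in the results below was not tested.

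**Figure D2:**
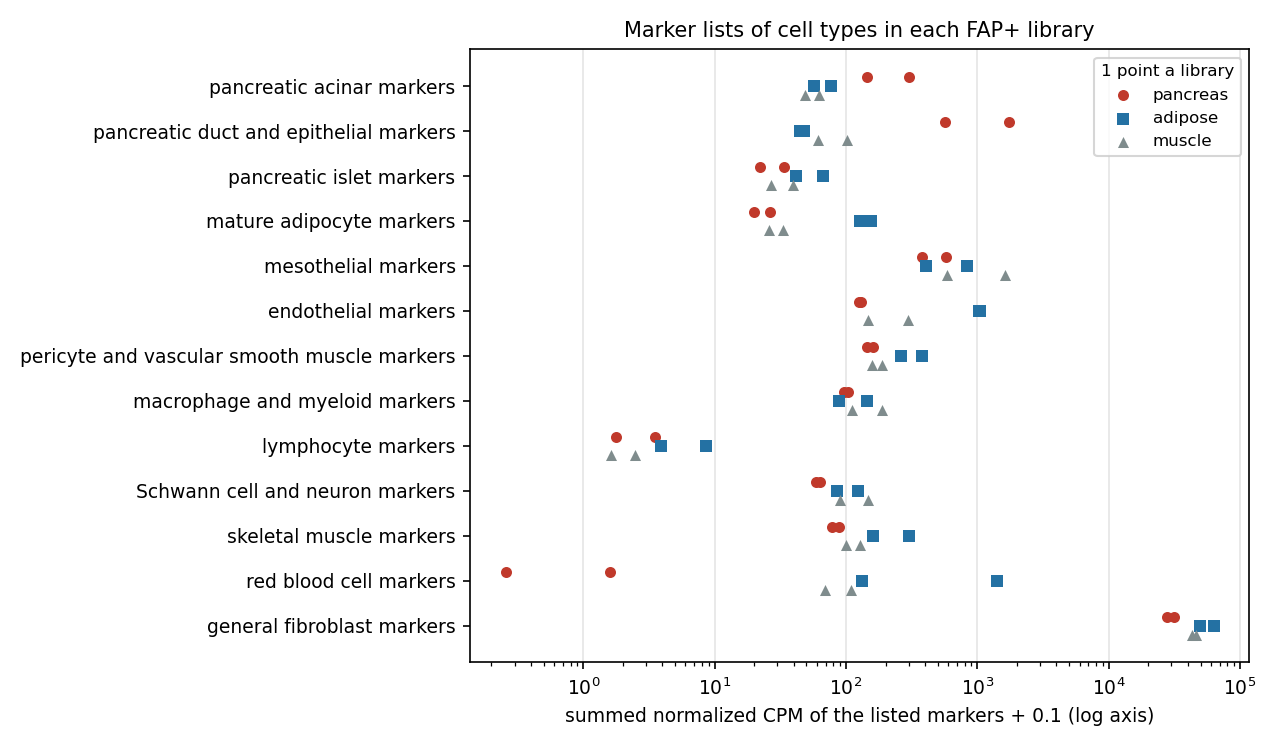
Summed normalized CPM of each marker list (log axis, 0.1 added) in every FAP+ library, 1 point a library. Red circles (pancreas) stand highest for acinar and epithelial markers, and blue squares (adipose) for endothelial and mature adipocyte markers. General fibroblast markers lie at the right for all tissues, with the red circles lowest.

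Transcription factors that pattern organs differed in both directions. Of 54 tested regional and organ factors, 9 were higher in pancreas and 11 in adipose (3.35% and 5.71% of all genes), and the list median was 0.39, or -0.10 for recovered reads. Without scaling factors these counts were 13 and 2. Nkx2-3, a homeobox gene of gut and spleen mesenchyme, was at 152 and 154 CPM in pancreas, 0.457 and 0 in adipose and 0 and 0.0858 in muscle. The level in pancreas was 856-fold that in adipose (log2 9.74 ± 0.99, adjusted p = 0.00332), and the pancreas libraries were alike. Barx1, the stomach mesenchyme factor, was at 54.8 and 51.3 CPM in pancreas and 0 and 0.0811 in adipose, a ratio of 1002 (95% counting interval 277 to 8274). Hand2, a basic helix-loop-helix factor of heart and gut mesenchyme, was at 25.7 and 19.8 CPM against 0.152 and 0.0811 (201-fold, adjusted p = 0.00193), and it kept its call in the fits without either pancreas library. Isl1, a LIM-homeobox factor needed for dorsal pancreatic mesenchyme, was at 9.28 and 13.3 CPM against 0 and 0.0406, a ratio of 426 (95% counting interval 76.4 to 16809.8). All 4 were near 0 in muscle too, at 0 and 0.0858 CPM for Hand2 and 0.0638 and 0 for Isl1. Nkx3-2 and Isl2 were called at lower levels, 3.54 and 6.39 and 1.98 and 2.65 CPM in pancreas, and Hlx and Six2 were also called higher in pancreas.

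The promoters of the 3 factors with the largest ratios of mean CPM + 1, and that of the adipose gene Sult1e1, are shown because these genes were nearly absent from the opposite tissue. Fabp4, which stood ahead of Sult1e1 in adipose by this ratio, had no entry among the RefSeq promoters. Each sequence is the 250 bases before the start of the gene in the RefSeq promoter table (build GRCm38.p6), in the direction of transcription. The windows are chr19:43612075-43612324 (+ strand), chr13:48662786-48663035 (+), chr8:57320733-57320982 (+) and chr5:87591612-87591861 (- strand). Capitals mark the CAAT box letters CCAAT, the GATA letters AGATAA or the E-box letters CAGCTG on either strand.
Nkx2-3: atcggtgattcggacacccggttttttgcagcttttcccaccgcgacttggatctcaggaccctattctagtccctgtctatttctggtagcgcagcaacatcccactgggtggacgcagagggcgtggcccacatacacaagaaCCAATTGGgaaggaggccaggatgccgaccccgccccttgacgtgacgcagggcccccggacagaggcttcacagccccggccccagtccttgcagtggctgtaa
Barx1: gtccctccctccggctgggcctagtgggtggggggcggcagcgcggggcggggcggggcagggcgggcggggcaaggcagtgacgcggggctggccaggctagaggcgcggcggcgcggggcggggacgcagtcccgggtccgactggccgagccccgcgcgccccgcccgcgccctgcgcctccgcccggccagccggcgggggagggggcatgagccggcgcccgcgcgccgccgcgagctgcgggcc
Hand2: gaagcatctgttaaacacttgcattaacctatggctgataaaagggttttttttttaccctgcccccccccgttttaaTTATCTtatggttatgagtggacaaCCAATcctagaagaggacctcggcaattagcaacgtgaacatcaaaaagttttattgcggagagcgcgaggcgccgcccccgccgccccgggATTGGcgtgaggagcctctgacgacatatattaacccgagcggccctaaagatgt
Sult1e1: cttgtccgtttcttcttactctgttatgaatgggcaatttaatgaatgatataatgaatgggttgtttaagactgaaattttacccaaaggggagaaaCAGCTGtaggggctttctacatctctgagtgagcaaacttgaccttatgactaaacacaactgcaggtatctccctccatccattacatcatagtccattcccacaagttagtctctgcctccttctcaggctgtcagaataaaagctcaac
In Nkx2-3 the capitals are 2 CAAT matches, 1 on each strand, that overlap in a palindrome, the first beginning 105 bases before the start. Hand2 holds 2 CAAT matches and 1 GATA match, Sult1e1 holds 1 E-box 152 bases before its start, and Barx1 holds none of the motifs searched. CCAAT was present in 34.5% of all 27025 promoter windows of this length, AGATAA in 10.3% and CAGCTG in 12.8%, so single matches are common. TATAAA and the AP-1 letters TGANTCA, in 13.0% and 6.87% of windows, were in none of the 4. No site is meant by a match.

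Adipose FAP+ cells held the higher level of other factors. Tcf21, the epicardial and visceral mesenchyme factor, was at 846 and 335 CPM in adipose, 131 and 110.2 in pancreas and 0.128 and 0 in muscle. It was called between pancreas and adipose (4.90-fold, adjusted p = 0.0397), but not without scaling factors. Wt1, known from visceral fat progenitors and mesothelium, followed it, at 64.3 and 92.6 CPM in adipose, 19.2 and 14.1 in pancreas and 0.0638 and 0.0858 in muscle, and likewise lost its call without scaling factors. Both were thus shared by the visceral sites and nearly absent from muscle. Irx3, an Iroquois homeobox factor, showed another pattern, at 6.63 and 5.72 CPM in adipose, 6.44 and 5.79 in muscle and 0 and 0.156 in pancreas, where 3 fragments were counted (ratio 77.3 (95% counting interval 26.5 to 375)). Gata2, a brake on adipocyte differentiation that endothelial cells also express, was at 5.34 and 5.52 CPM against 0.261 and 0.0520 (33.6-fold, adjusted p = 0.0116). Foxc1, which endothelial cells express as well, was at 9.61 and 23.9 CPM against 2.08 and 3.33.

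Hox genes, whose clusters encode position along the body axis, placed the tissues apart within clusters. Of 35 tested, 2 were higher in pancreas and 6 in adipose, with a list median of -0.37. It was 0.07 without scaling factors and 0.01 on FPKM, beside 0.63 and 0.37 over all genes. Without scaling factors the counts were 4 and 4. Hoxc8 was at 24.1 and 43.8 CPM in adipose and 0.365 and 0.312 in pancreas (98.9-fold, adjusted p = 0.00154), and Hoxc9 at 16.5 and 8.52 against 0.261 and 0.208. Hoxc6 stood at 24 and 24.7 CPM against 2.40 and 2.86, and Hoxa7 at 27.4 and 24.3 against 3.13 and 2.49. In the same clusters Hoxc4 and Hoxc5 were at 6.62 and 8.31 and 4.43 and 4.94 CPM in pancreas and 6.40 and 14 and 7.39 and 8.96 in adipose and were not called. Further along the clusters, Hoxc10 and Hoxa10 were near 0 in both, at 0.686 and 0.0811 and 0.229 and 0.122 CPM in adipose, but at 14.5 and 13.7 and 23.4 and 25.4 in muscle. Pancreas cells held the higher level of Hoxb4 (18.6 and 24.3 CPM against 6.33 and 7.42) and Hoxb5 (18.6 and 19.3 against 6.25 and 5.19, 3.31-fold, adjusted p = 0.0108).

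Other genes with large ratios in pancreas had varied roles. Spp1, the secreted phosphoprotein osteopontin, was at 1359.5 and 443 CPM in pancreas and 3.13 and 2.43 in adipose (326-fold, log2 8.35 ± 0.89, adjusted p = 0.00381). Duct cells also make Spp1, and its level was higher in pancreas library 1, as was that of the epithelial markers. Tenm4, a teneurin of cell adhesion, did not follow that order, at 60.1 and 66.5 CPM against 0.915 and 0.730 (77.7-fold, adjusted p = 0.00286). Mgarp, a mitochondrial protein, was at 51.2 and 57.3 CPM against 1.14 and 1.74 (36.7-fold, adjusted p = 0.00174). Tnfrsf19, the receptor TROY, was at 19.1 and 16.4 CPM against 0.0762 and 0.0811, a ratio of 223 (95% counting interval 76.5 to 1083). Dlk1, a Notch-related protein that restrains adipocyte differentiation, was at 129 and 152 CPM in pancreas, 6.63 and 5.72 in adipose and 21 and 61.8 in muscle. It was called between pancreas and adipose (adjusted p = 0.00465) and not between pancreas and muscle (adjusted p = 0.107).

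**Figure D3:**
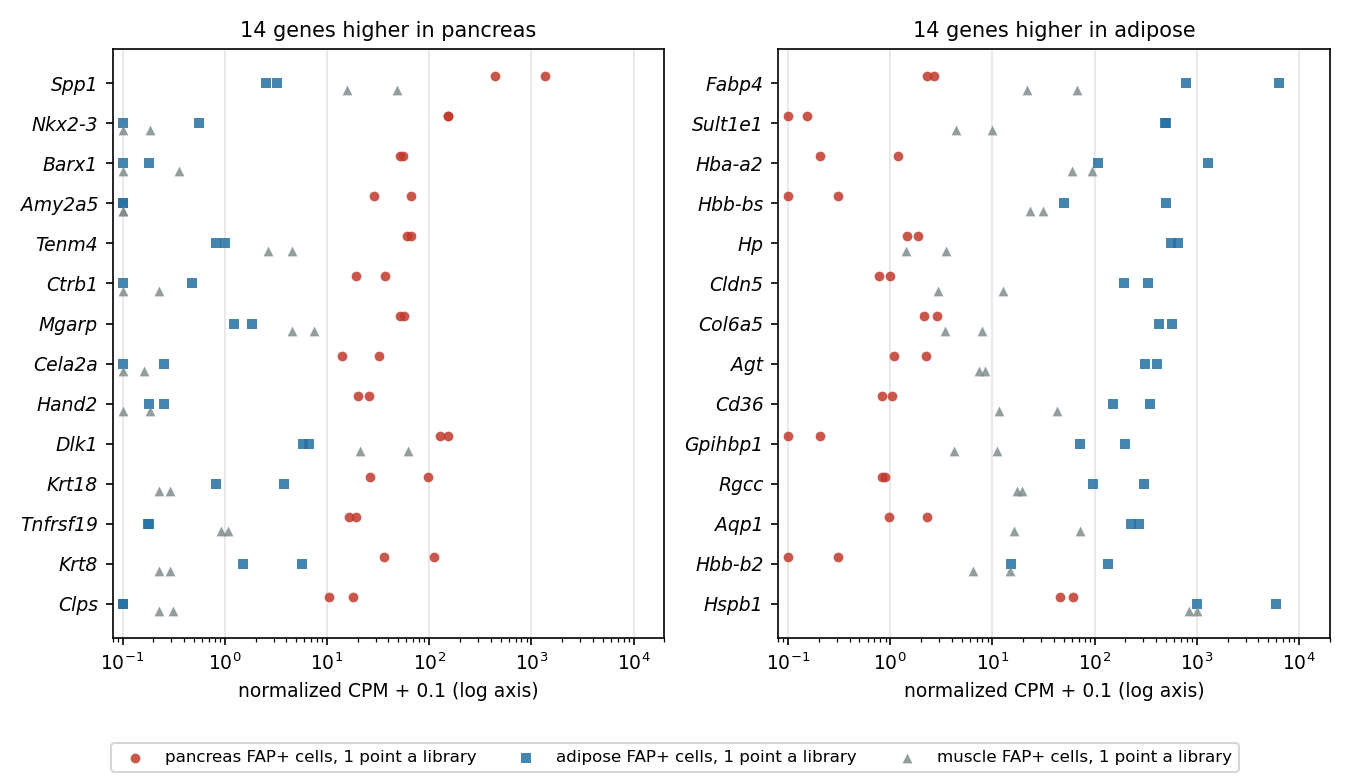
Normalized CPM (log axis, 0.1 added) of the 14 genes with the largest ratio in each direction, 1 point a library. On the left the red circles (pancreas) lie right of the blue squares (adipose) for every gene, from Spp1 to Clps, and on the right the order is reversed, from Fabp4 to Hspb1; grey triangles are muscle.

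Growth factors and their receptors gave calls on both sides, 7 higher in pancreas and 8 in adipose of 48 tested (31.25% beside 9.06% of all genes). The list median was 0.08 (-0.05 for recovered reads). The heparin-binding factor Ptn was at 15.6 and 26.1 CPM in pancreas and 0.991 and 0.811 in adipose (23.4-fold, adjusted p = 0.00441). Ntf3, the neurotrophin 3 gene, was at 70.6 and 77.5 CPM in pancreas, 8.69 and 8.84 in adipose and 48.5 and 85.7 in muscle, while its receptor gene Ntrk3 ran the other way, at 13 and 13.2 in pancreas and 99 and 61.6 in adipose (6.13-fold, adjusted p = 0.00781). The IGF binding protein genes Igfbp5 and Igfbp3 were higher in pancreas, at 209 and 263 and 119 and 129 CPM against 43.7 and 42.1 and 12.7 and 32.6. On the adipose side stood Angptl4, an inhibitor of lipoprotein lipase (511 and 341 CPM against 76.6 and 102, 4.77-fold), and the vessel factors Pdgfb (5.49 and 7.38 against 0.156 and 0.156) and Angpt2 (6.48 and 6.08 against 0.625 and 0.624), which endothelial cells make. Without scaling factors the counts were 8 and 4.

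Wnt pathway genes were among the few lists with more calls in pancreas, 5 against 3 of 36 tested, or 5 against 4 with RLE factors. Without scaling factors they were 6 against 0, where calls over all genes also moved toward pancreas (789 against 335). The 5 and 3 were 22.2% of the list, beside 9.06% of all genes. The list median was -0.02. Higher in pancreas were the ligand gene Wnt2b (6.57 and 10.3 CPM against 1.14 and 1.30, 6.87-fold, adjusted p = 0.00948), the R-spondin Rspo3, and genes of inhibitors: Dkk3 (24.4 and 33.8 against 2.74 and 4.54), Dkk2 (15.5 and 17.1 against 5.57 and 6.65) and the feedback gene Nkd1 (34.1 and 36.8 against 6.63 and 8.07, 4.81-fold, adjusted p = 0.00484). Adipose held more of the ligand gene Wnt5b, the R-spondin Rspo1 and the receptor gene Fzd5, at 35.5 and 31.9, 139 and 67.1 and 14.4 and 31.5 CPM against 8.29 and 9.87, 30.2 and 23.1 and 4.33 and 4.73. None of these last 3 was called without scaling factors.

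Retinoid genes were called in both directions, among them related enzymes. Aldh1a2, which makes retinoic acid, was at 98.3 and 90.8 CPM in pancreas and 12.7 and 16.7 in adipose (6.42-fold, adjusted p = 0.00425). Its relative Aldh1a3 was at 14.5 and 14.3 CPM in pancreas and 96.4 and 108 in adipose (7.09-fold the other way, adjusted p = 0.00420). Cyp26b1, which breaks retinoic acid down, was at 20.0 and 30.5 CPM in pancreas against 5.87 and 8.23, and the receptor gene Rarg at 62.7 and 59.1 against 16.7 and 32.5. Of 25 tested members 3 were higher in pancreas and 4 in adipose (28% beside 9.06% of all genes), or 3 and 2 without scaling factors. The list median was -0.47, and 0.34 without scaling factors, 0.04 on FPKM and 0.25 for recovered reads. Over all genes the last 3 medians were 0.63, 0.37 and 0.01. Of these settings, the list lay above all genes for recovered reads only.

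Genes of nerve guidance and adhesion gave 7 calls higher in pancreas and 6 in adipose of 48 tested (27.1% beside 9.06% of all genes). Without scaling factors the counts were 7 and 2, and the list median was -0.08 with TMM factors. The guidance receptor gene Robo2 was at 5.58 and 6.39 CPM in pancreas and 0.152 and 0.162 in adipose (36.5-fold, adjusted p = 0.00325). It was low throughout. The ephrin receptor genes Epha4 and Epha3 were at 13.9 and 20.4 and 5.11 and 9.82 CPM against 2.90 and 4.14 and 0.457 and 1.22. Ntn1, the guidance cue netrin 1, was higher in adipose, at 115 and 109 CPM against 32.3 and 40.0, as was Cdh13, a cadherin of vessels, at 101 and 62.1 against 7.14 and 4.05 (14.6-fold, adjusted p = 0.00476).

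On the adipose side Sult1e1, the sulfotransferase that inactivates oestrogens, had the largest fitted fold change of the 14 leading genes. It was at 485 and 505 CPM in adipose, 9.89 and 4.29 in muscle and 0.0521 and 0 in pancreas, where 1 fragment was counted in all, a ratio of 19147 (95% counting interval 3436 to 756259). Muscle differed from both (adjusted p = 0.00445 against adipose and 0.00655 against pancreas). Of 47 tested genes of solute, lipid and xenobiotic metabolism, 15 were higher in adipose and 1 in pancreas, with a list median of -0.98, and 7 and 2 without scaling factors. Inmt, a methyltransferase, was at 2437 and 965 CPM against 152 and 103 (13.3-fold, adjusted p = 0.00633). The metallothionein genes Mt1 and Mt2, which bind zinc and copper, were at 25229.5 and 2036 and 15906 and 2257 CPM in adipose against 726 and 593 and 533 and 453 in pancreas. For both, adipose library 1 was several times above adipose library 2. The member higher in pancreas was the carboxylesterase gene Ces1d, at 129 and 92.3 CPM against 18.2 and 18.1 (6.09-fold).

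Genes of fat cell formation and lipid handling were mostly called toward adipose, 11 of 32 tested against 1, with 6 and 2 without scaling factors. The list median of -0.85 moved to 0.02 without scaling factors, beside 0.63 over all genes. Fabp4, the fatty acid carrier of adipocytes that capillary endothelium shares, was at 6445 and 782 CPM in adipose, 21.5 and 66.6 in muscle and 2.19 and 2.60 in pancreas (1506-fold, adjusted p = 0.00581). Its 2 adipose values differed widely. Cd36, the fatty acid receptor found on the same cells, was at 150.3 and 348 CPM against 0.730 and 0.935 (297-fold, adjusted p = 0.00427). Gpihbp1, which carries lipoprotein lipase on capillaries, was at 198 and 72.1 CPM against 0 and 0.104, a ratio of 2225 (95% counting interval 616 to 18369), beside the endothelial sums of 1052 and 1033 CPM given above. The master regulator Pparg was at 43.2 and 37 CPM in adipose and 13.5 and 13.4 in pancreas (log2 -1.58 ± 0.31, adjusted p = 0.0228), and Cebpb, which acts before it, at 4239 and 1762 against 457 and 442. Lpl, lipoprotein lipase, did not follow, at 774 and 1098 CPM in pancreas and 342 and 544 in adipose, and was not called. The member higher in pancreas was Dlk1.

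The list of parenchymal fibroblast genes, drawn from the fibroblasts that express Col15a1, gave 8 calls in adipose of 23 tested, or 5 without scaling factors, with a median of -0.81. Among the 8 were Fabp4, which capillary endothelium shares, and Icam1, which is also counted among the NF-kB genes below. The part of endothelial RNA in these calls was not tested. By edgeR 0 members were higher in pancreas, with 2 at an unadjusted p below 0.05 and 0 by DESeq2. Agt, the angiotensin precursor, was at 408 and 313 CPM in adipose, 8.36 and 7.25 in muscle and 2.14 and 0.987 in pancreas (229.9-fold, log2 -7.85 ± 0.47, adjusted p = 0.00154). Col6a5, a collagen VI chain, was at 575 and 429 CPM in adipose, 3.32 and 7.89 in muscle and 2.76 and 2.03 in pancreas (209-fold, adjusted p = 0.00193). Penk, the enkephalin precursor, was at 3527 and 1915 CPM against 536 and 458, and the BMP relative Gdf10 at 700.2 and 914 against 168 and 163, a call lost without scaling factors. The adventitial list, named for Pi16, had 1 member called of 26, Fn1, higher in adipose, a share of 3.85% beside 9.06% of all genes. With RLE factors 3 were higher in adipose, without scaling factors 2 were higher in pancreas, and without adipose library 2 there were 6 in pancreas and 5 in adipose. The difference between the 2 lists was not tested. Hp, the haemoglobin scavenger haptoglobin, stood in no list, at 565 and 649.9 CPM in adipose against 1.36 and 1.77 in pancreas and 3.44 and 1.33 in muscle (388-fold, adjusted p = 0.00309).

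Chemokine, cytokine and receptor genes gave 16 calls higher in adipose and 1 in pancreas of 44 tested, with a list median of -1.23. The monocyte chemokines Ccl7 and Ccl2 led, at 1314 and 729 and 1078 and 717 CPM in adipose against 31.9 and 30.6 and 33 and 32.6 in pancreas, and 213 and 111 and 169.7 and 71.1 in muscle. They were 32.7-fold and 27.3-fold higher in adipose (adjusted p = 0.00309 and 0.00353). Il6 was at 244 and 209.9 CPM against 28.6 and 28.3 (7.99-fold, adjusted p = 0.00348), and the neutrophil chemokine Cxcl1 at 1021 and 1271 against 213 and 242. Il1r2, the decoy receptor for interleukin 1, differed within tissues, at 66.9 and 8.76 CPM in adipose against 1.30 and 0.831 in pancreas and 288 and 99.1 in muscle. The single member higher in pancreas was Il34, a ligand of the macrophage receptor CSF1R, at 92.7 and 108 CPM against 43.1 and 42 (log2 1.24 ± 0.31, adjusted p = 0.0469), a call lost with RLE factors and without adipose library 1.

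Early response and stress genes were mostly called toward adipose: 17 of 37 tested were higher in adipose and 1 in pancreas (median -1.14), or 6 and 3 without scaling factors. Heat shock genes were on the adipose side: Hspb1 at 5979 and 1008 CPM against 61 and 45.4 (65.6-fold, adjusted p = 0.00806), and Hspa1b at 513 and 1572 against 103 and 142. In muscle these stood at 994 and 847 and 2566 and 2326 CPM, so that the pancreas values were the low ones. The AP-1 gene Fosl1 was at 43.1 and 30.4 CPM against 0.417 and 1.14 (46.7-fold, adjusted p = 0.00472), a call that recovered reads did not repeat (adjusted p = 0.120). Nr4a2, an orphan nuclear receptor, was at 97.4 and 139.9 CPM against 9.33 and 14. Fos, Jun and Egr1, the fastest genes of the group, were at 5420.3 and 5548, 1995 and 3068 and 2182 and 2034 CPM in pancreas and 2946 and 1965, 305 and 1197 and 810.4 and 1071 in adipose, and none was called (adjusted p = 0.0895, 0.127 and 0.0589). Ier2 was the one called higher in pancreas, at 2994 and 2396 CPM against 1167 and 524 (adjusted p = 0.0499), and lost its call with RLE factors. These genes respond to dissociation and sorting, and the handling of each tissue is not given in the labels, so its part was not tested.

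Complement and MHC genes were called toward adipose, 5 against 1 of 18 and 9 against 1 of 45, or 3 against 1 and 5 against 2 without scaling factors. Cfb, of the alternative pathway, was at 347 and 349.7 CPM against 89.4 and 71.1, and Cfd, which adipocytes secrete, at 20.7 and 5.76 against 0.104 and 0.0520 (ratio 140.4 (95% counting interval 48 to 681)). The class II genes Cd74 and H2-Ab1 were at 44.4 and 23.1 and 31.2 and 10.7 CPM against 3.34 and 2.91 and 1.36 and 1.92, with higher values in adipose library 1, beside the myeloid calls given above, whose part was not tested. Irf1, an interferon response factor, was at 2008 and 2418 CPM against 487 and 349.7 (5.29-fold, adjusted p = 0.00733). Pancreas had the higher level of Clu, the chaperone clusterin (231 and 76.1 CPM against 24.5 and 13.2), and of the antiviral gene Oas2 (11.1 and 7.90 against 2.13 and 1.70, 4.97-fold, adjusted p = 0.0172). Clu was highest in pancreas library 1.

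Notch pathway and contractile genes were called toward adipose together with vessel markers. Of 27 Hedgehog and Notch genes, 7 were higher in adipose, or 4 without scaling factors. None was called higher in pancreas by edgeR, with 3 at an unadjusted p below 0.05 and 1 by DESeq2. The receptor gene Notch4 was at 68.3 and 26.4 CPM against 0.625 and 1.14 (53.1-fold, adjusted p = 0.00481), and the ligand gene Dll4 at 12.9 and 16 against 0.208 and 0. Both are known from endothelium, whose markers differed in the same direction, and the part of endothelial RNA was not tested. Of 22 contractile genes 6 were higher in adipose, 2 without scaling factors, among the 6 smooth muscle myosin Myh11 (72.2 and 66.8 CPM against 18.8 and 6.96) and Acta2 (49 and 50.4 against 19.5 and 13.2). Cspg4, the NG2 proteoglycan of pericytes, ran the other way, at 63.3 and 62.6 CPM in pancreas and 11.3 and 7.91 in adipose (6.58-fold, adjusted p = 0.00465).

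Counts for matrix genes depended on the test. Among 41 interstitial collagens and glycoproteins edgeR called 1 higher in pancreas and 2 in adipose, 7.32% beside 9.06% of all genes. At an unadjusted p below 0.05, 10 were higher in adipose, DESeq2 called 9, and the fit without adipose library 2 called 9. The fold change was negative for 33 of the 41, with a median of -0.34. The glycoprotein genes Fn1 and Postn were the 2, at 7868 and 5382 and 2169.6 and 1921 CPM against 1686 and 1876 and 325 and 445, and neither was called without scaling factors. Col3a1 was at 4329.9 and 4975 CPM in pancreas and 8799.6 and 8069 in adipose and was not called (log2 -0.86 ± 0.44). Of 25 basement membrane genes 2 were called (8.0% beside 9.06% of all genes). Of 39 matrix proteases and inhibitors 4 were called (10.3%), of which 3 were higher in adipose. For these, DESeq2 and the fit without adipose library 1 each called 8 higher in adipose. Timp4, an inhibitor of matrix metalloproteases, was the most different of these, at 32.7 and 18.5 CPM against 0.678 and 0.260 (53.9-fold, adjusted p = 0.00581). The lysyl oxidase gene Loxl4 was at 55.7 and 67.2 CPM against 7.77 and 9.77. In the BMP and TGF-beta list of 43, 5 were higher in adipose (3 without scaling factors) and 1 in pancreas, with Bmper, a BMP-binding protein, at 128 and 148 CPM against 23.5 and 23.4 (5.89-fold, adjusted p = 0.00568).

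The share of called genes stood above that of all genes for glucose genes and nearer to it for cell cycle genes. In the glycolysis list of 20, 4 were higher in adipose (2 without scaling factors) and 1 in pancreas, a share of 25% beside 9.06% of all genes. Hk2, hexokinase 2, was at 326 and 164 CPM against 22.8 and 22.3 (10.9-fold, adjusted p = 0.00381), and the glucose transporter Slc2a1 at 60.9 and 60.5 against 11 and 14.5. Of 31 cell cycle genes Cdkn1c, an imprinted inhibitor of cycling, was higher in pancreas (347 and 486 CPM against 97.4 and 145), and Cdkn1a, Pcna and Ccne1 in adipose, together 12.9% of the list. None of the 3 was called without scaling factors. The cell cycle list had a median log2 fold change of -0.58, or 0.08 without scaling factors. It summed to 1610 and 1704 CPM in pancreas and 1142 and 1590 in adipose. Of 20 cholesterol synthesis genes 0 were called by edgeR, though 6 were lower in pancreas at an unadjusted p below 0.05 and 3 by DESeq2. Of 7 FAP family peptidases 0 were called by edgeR, 0 at an unadjusted p below 0.05 and 0 by DESeq2. Dpp4, the nearest relative of Fap, was at 82.7 and 126 CPM in pancreas and 26.3 and 70.3 in adipose (adjusted p = 0.240).

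**Figure D4:**
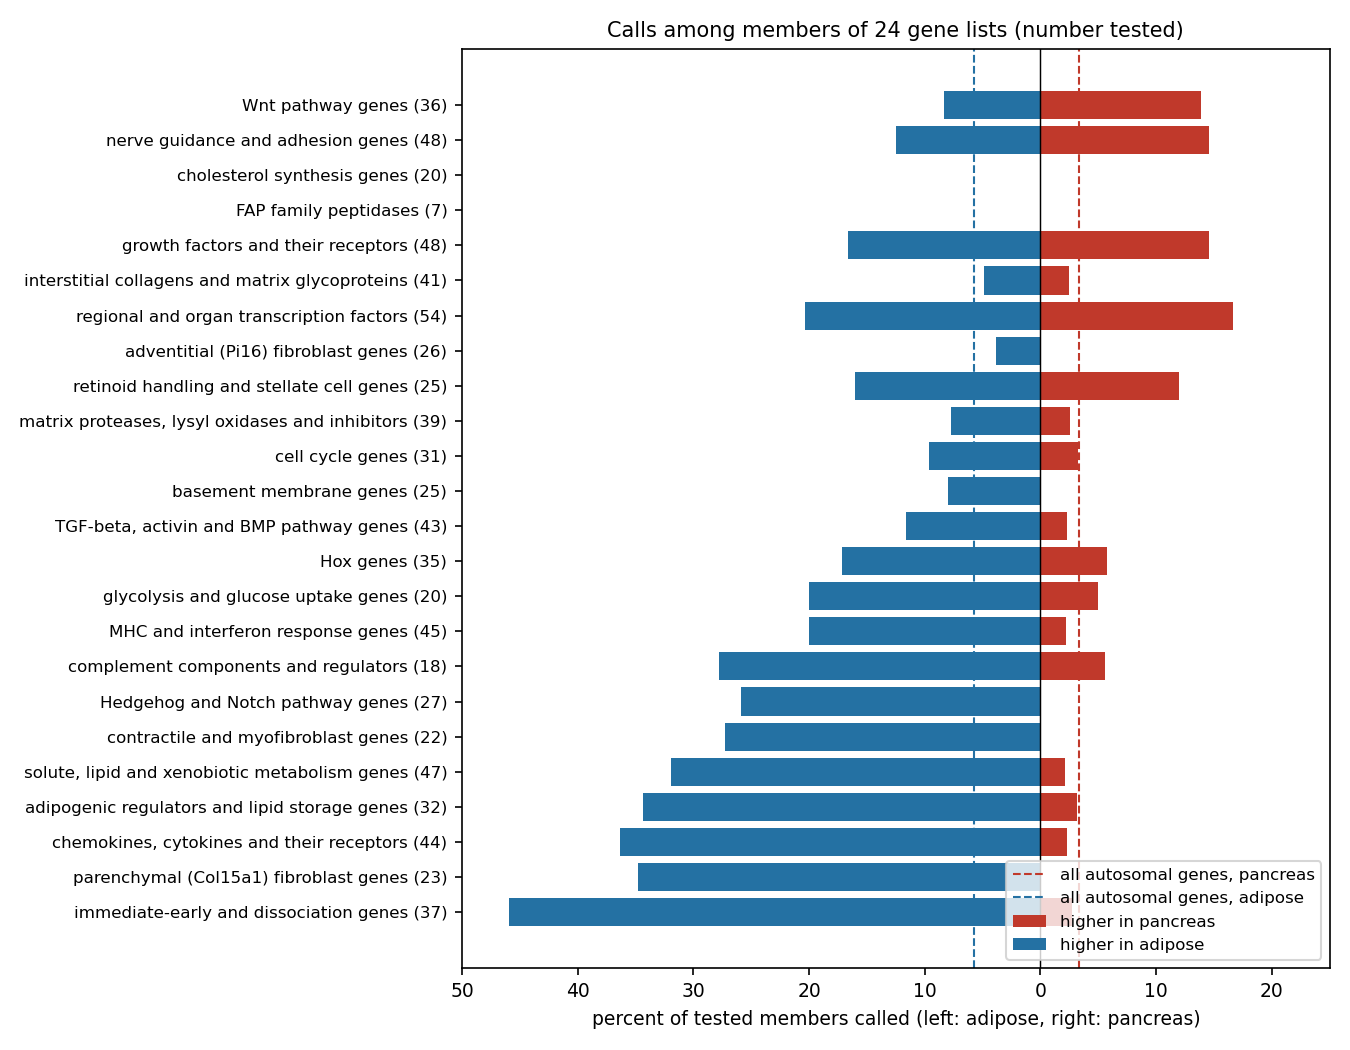
Percent of tested members of each of 24 gene lists called higher in adipose (blue, left) or in pancreas (red, right), with the number tested in brackets. Dashed lines mark the shares over all autosomal genes, 3.35% and 5.71%; early response, parenchymal fibroblast and chemokine lists reach furthest left, and regional factors, guidance, growth factor and Wnt lists furthest right.

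The RPKM table gave a check on the same libraries. Reads recovered from it called 22.6% of 13784 genes. Of the 477 genes called higher in pancreas 469 had such reads, 469 had the same sign and 432 (92.1%) were called again, and of the 814 higher in adipose 797 had reads, 796 the same sign and 736 (92.3%) a call. On log2(RPKM + 1), limma called 11.1% of 21336 genes, with 78.2% of the pancreas and 60.1% of the adipose calls among them. For Nkx2-3 recovered reads gave a log2 fold change of 10.26 against 9.74, for Tenm4 6.27 against 6.28, for Hp -7.98 against -8.60 and for Fabp4 -10.10 against -10.56. Of 143 named genes called, 140 had recovered reads, and Fosl1, Lamb2 and Tubb3 were the 3 of them not called. In the fits without pancreas library 1 and without library 2, 16 and 7 of the 143 were called, and Agt, Car3, Hand2, Irx3, Mgarp, Spp1 and Tnfrsf19 were called in both. Without scaling factors 113 of the 143 were called, and those lost include Tcf21, Wt1, Foxc1, Rarg, Cfb, Hspa1b, Ntn1 and Myh11 beside the genes named as lost above. Without adipose library 1, 133 were called, and Postn, Dkk2 and Igfbp3 were not. Limma on log2(FPKM + 1) gave smaller counts in adipose for most lists: 5 for chemokines, 5 for early response genes, 2 for regional factors, 3 for fat cell formation, 8 for metabolism and 4 for parenchymal fibroblast genes.

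**Figure D5:**
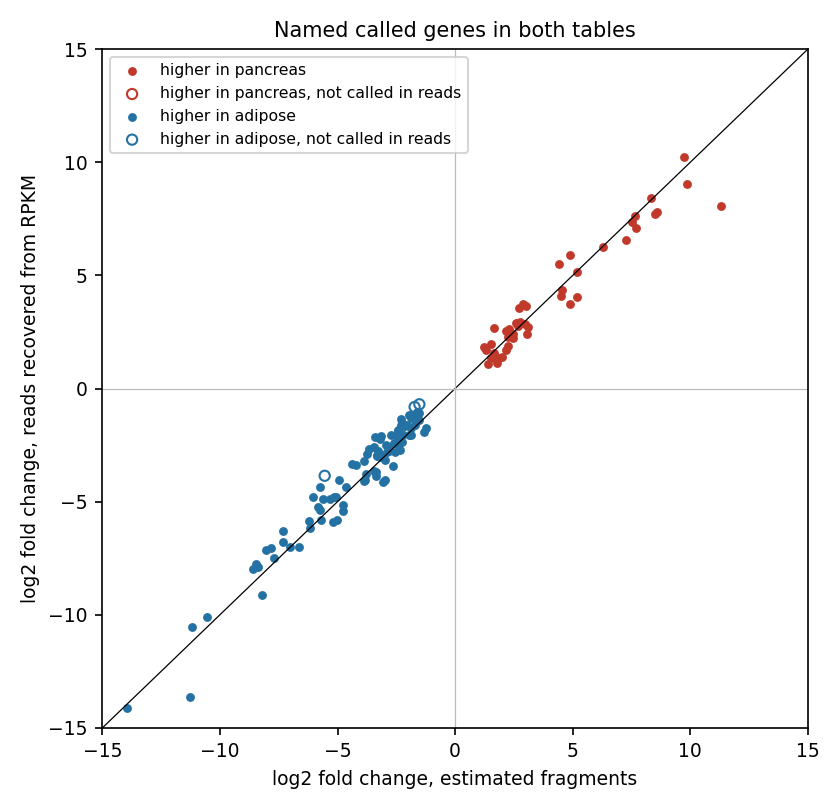
Log2 fold changes, pancreas minus adipose, of 140 named called genes in the fragment table (x axis) and in reads recovered from the RPKM table (y axis), with the line of equality. All 140 share their sign, and open circles are the 3 not called in reads.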

How the data were processed

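The values are those the authors deposited for 8 libraries, 2 per group. Per the labels, RNA was amplified with MessageAmp, which copies from the poly(A) tail, before the Illumina mRNA kit. Tools in the submitters' processing notes are HTSeq, TopHat2, Bowtie2 and edgeR, and the build is mm9, without versions or roles. By their names and values, the deposited tables hold bias-adjusted estimated counts of fragments, matching FPKM, and RPKM. Which program adjusted for bias is not stated in the labels or headers. Another 6 columns per table, of published T cells per the series' design, were not used here.

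Estimated counts were rounded and tested with edgeR 4.0.16 (R 4.3.3): TMM factors, filterByExpr, glmQLFit and glmQLFTest, all 8 libraries in 1 fit, no covariates, Benjamini-Hochberg adjustment over 14847 genes. The fit had 4 residual degrees of freedom and a biological coefficient of variation of 33.2%. TMM factors were 1.09 and 1.13 in pancreas and 0.516 and 0.889 in adipose. Of the genes tested, 489 on chromosomes X and Y and 110 of unknown chromosome were left out. Symbols and chromosomes came from RefSeq (GRCm38.p6), another build than mm9, so no coordinates of the files are given. Identifiers were matched to a current symbol for 20044 genes and to an older symbol for 2304, and 261 had no match.

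Normalized CPM are fragments relative to the TMM-scaled library size and are not divided by gene length, so levels of different genes are not compared. Log2 fold changes are ± SE, taken as the fold change over the square root of the test's F. A fold against a group at 0 is a lower bound with 3 fragments per library (unscaled, 0.108 to 0.193 CPM), and 1 to 3 fragments give a ratio with a 95% counting interval. Amplified fragments are not independent molecules, so both cover counting error alone. RPKM values were whole multiples of 1 step per gene and library within 0.01, which gave whole reads for 20963 genes and totals of 9149833 to 16369646, and 1646 genes had no usable step.

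The alternatives were RLE, upper quartile or no scaling, DESeq2 1.42.0, other filters, fewer groups in the fit, a block for the replicate number, each library left out, a 2-fold test, limma 3.58.1 on log2 of FPKM or RPKM plus a pseudocount of 1 or 0.1, and recovered reads. The genes named were, among calls whose higher tissue reached 10 CPM in each library, the 14 with the largest ratio of mean CPM + 1 each way, up to 4 called members per list and direction at 2 CPM or more, Fap and Dpp4, and the 2 most abundant markers of each of 13 lists of other cells. Some further list members are named beside them for comparison, and some that the rule names are not reported here. The comparison, the 37 lists and the rules were chosen with earlier results of these data known. Promoter motifs were counted in the RefSeq table, in which all 4 genes shown were found and some other leading genes, such as Fabp4 and Hp, were not. The scripts were tested on simulated data.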

Additional observations from a re-analysis of the deposited data

How the results depend on the processing

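Against 477 genes higher in pancreas and 814 in adipose, the counts were 789 and 335 without scaling factors, 71 and 219 with only the pancreas and adipose libraries in the fit, 113 and 334 in the test against a 2-fold change, 66 and 229 at an adjusted p of 0.01, and 1426 and 1695 for recovered reads. With the sorted FAP+ libraries only, 304 genes were higher in pancreas, and limma on log2(RPKM + 1) gave 1581. DESeq2 called 1403 genes higher in adipose, and limma on FPKM called 293 with a pseudocount of 1, 288 with 0.1 and 303 for genes at 1 FPKM or more in 2 libraries. Leaving out 1 library gave 4 to 2207 genes higher in pancreas and 3 to 2677 in adipose, where the lone sample of a group is assumed to vary like the others. RLE and upper quartile scaling, no filter, a filter of 5 CPM, no demand that libraries agree and inclusion of all chromosomes moved both counts by less than 1.5 times. No named gene reversed its direction while called. Of 143 named calls, 141 held with RLE, 139 with upper quartile, 113 without scaling factors, 141 with DESeq2, 134 without a filter, 70 with only the pancreas and adipose libraries, and 84 with limma on log2(FPKM + 1). The cause was not tested.

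With the replicate number as a block, 383 genes were higher in pancreas and 709 in adipose, and 131 of 143 named calls held. The deviations of same-numbered libraries correlated at 0.45 between pancreas and adipose, 0.05 between pancreas and muscle and 0.21 between adipose and muscle. Since not every pair exceeded 0.1, the numbers were not taken to pair the libraries, and whether same-numbered pancreas and adipose libraries share a batch was not tested. Rarg, Rbp4, Thbs4, Lama5, Il34, Ier2, Igfbp3, Mt1, Cdkn1a, Ccne1, Mbp and Tubb3 were not called under the block.

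Depth limits genes near 3 fragments per library, and with 2 libraries a group the spread is known only from the pooled estimate.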

Other observations

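Some gene groups outside the lists were described after their values had been seen, so their counts carry no test. Imprinted genes, expressed from 1 parental copy, were called higher in pancreas for 10 of 47 tested, a share of 21.3% beside 3.35% of all genes, and for 0 in adipose by edgeR (6 at an unadjusted p below 0.05, 2 by DESeq2). Peg3, a paternally expressed zinc finger gene, was at 39.3 and 46.9 CPM in pancreas, 6.17 and 7.67 in adipose and 22.2 and 28.1 in muscle. H19, a maternally expressed RNA, was at 26 and 22.8 CPM in pancreas, 3.43 and 4.42 in adipose and 30.6 and 24.3 in muscle, and Mest, a paternally expressed hydrolase gene, at 134 and 156, 20.4 and 38.9 and 17.9 and 32.1. Dlk1, Igf2, Cdkn1c, Slc38a4, Zim1, Mirg and Blcap were the others. Without adipose library 1 the count was 6, with 1 in adipose, and for recovered reads 11, with 2 in adipose. The fit without adipose library 2 gave 18 and 10, that with the replicate number as a block 5 and 1, and limma on log2(FPKM + 1) gave 4 and 0. Tissue and sex of the animals cannot be told apart here either.

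Of 346 genes whose symbol is Zfp and a number, most of which encode zinc finger proteins, 71 were higher in pancreas and 2 in adipose (20.5% and 0.578%), and 304 had a positive fold change. Without adipose library 1 the counts were 67 and 5, without adipose library 2 they were 128 and 11, and for recovered reads 110 and 11. Of 76 ribosomal protein genes 0 were called by edgeR in either direction (0 higher in pancreas and 26 in adipose at an unadjusted p below 0.05, and 0 and 3 by DESeq2), but 71 had a negative fold change and the median was -1.53, or -0.59 without scaling factors. The fit without adipose library 2 called 63 of them higher in adipose and 2 in pancreas, and that without adipose library 1 called 0 either way. These genes have many near-identical copies, so their values are uncertain.

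Genes of acute-phase and innate defence proteins were higher in adipose for 13 of 18 tested (72.2% beside 5.71% of all genes), with 1 higher in pancreas. The transferrin gene Trf was at 1258 and 1347 CPM in adipose, 34.1 and 28.4 in pancreas and 58 and 90.4 in muscle, and Ptx3, a soluble pattern receptor, at 1092 and 1283, 47.5 and 72.6 and 668 and 463. Among 26 NF-kB factors and feedback genes 16 were higher in adipose (61.5% beside 5.71% of all genes). They included Tnfaip3, which ends the signal (434 and 349 CPM against 23.3 and 24.6), Bcl3 (267 and 113 against 14.5 and 9.77) and Nfkbia (709 and 898 against 212 and 231). Both groups stood beside the chemokine calls and the endothelial and myeloid markers, whose part was not tested. Without scaling factors the counts in adipose were 11 and 11.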
